A study of Mus musculus with 48 samples.

Results

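The last 4 h of the light phase were examined in the livers of control mice, with 4 liver libraries from zeitgeber time (ZT, hours after lights-on) 12, the time of lights-off, set against 4 from ZT8. The comparison uses 8 of the 48 RNA-seq libraries of the series, chosen by their labels alone, and all 14555 genes with enough counts to test, out of 54532 in the count table. All mice were wild-type C57BL/6 males, 8 to 10 weeks old, and the control arm was kept on an unshifted schedule of 12 h light and 12 h dark. The other arm, 24 libraries from mice whose lights were advanced once by 6 h, is used here for the same step in 8 further libraries, 4 at phase-shifted ZT12 and 4 at phase-shifted ZT8. Livers were collected between day 6 and day 7 after that advance. The treatment field reads "Phase shift" for every sample, so the arm was taken from the sample titles, and the labels do not say from which lights-on ZT was counted in the advanced mice. Nothing in the labels says whether a library came from 1 mouse or from a pool, so p-values measure the spread between these libraries.

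Mice feed mainly in the dark, and the hours before lights-off close their daily fast. In the liver clock, CLOCK and BMAL1 (gene Arntl) activate the Period, Cryptochrome, REV-ERB and PAR bZIP genes through E-boxes. REV-ERB proteins in turn repress genes that carry ROR response elements, and the PAR bZIP factors act through D-boxes. Liver enzymes of amino acid, glycogen, lipid and bile acid metabolism follow both this clock and feeding.

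Total counts ran from 16444914 to 17630736 at ZT12 and from 15370303 to 17263646 at ZT8. Hepatocyte markers were abundant throughout, with a summed level of 97303 to 107608 CPM over 12 genes at ZT12 and 96924 to 113877 CPM at ZT8. Replicate 2 stood apart at both times. Transcripts of the mitochondrial genome took 15.1% of its counts at ZT12 and 12.8% at ZT8, against 6.39 to 8.17% in the other ZT12 libraries and 6.45 to 7.73% in the other ZT8 libraries. In the same replicate, 13 markers of Kupffer cells, the resident liver macrophages, summed to 54.6 CPM at ZT12 and 26.6 CPM at ZT8. The other 3 libraries held 199 to 402 CPM of these markers at ZT12 and 289 to 507 CPM at ZT8. Sinusoidal endothelial markers were also lowest in replicate 2, at 63.2 CPM at ZT12 and 44 CPM at ZT8, and 1 of the 13 Kupffer markers at ZT12 and 1 of the 13 endothelial markers at ZT8 had no counts there. In every other library each marker of both lists was detected. Called genes are therefore given with and without replicate 2 of both times, and a difference in cell number cannot be told apart in bulk tissue from a difference in RNA per cell.

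Between ZT12 and ZT8, 131 genes passed an adjusted p of 0.05 in edgeR's quasi-likelihood test with Benjamini-Hochberg adjustment, which is 0.9% of the genes tested. At ZT12, 40 genes rose (0.275%) and 91 fell (0.625%), with a median log2 fold change (ZT12 minus ZT8) of 0.72 among those that rose and -0.82 among those that fell. Changes of at least 1 on the log2 scale, a doubling or a halving, were found for 7 of the genes that rose and 28 of those that fell. In 30 of the 40 and 61 of the 91 genes, the 4 libraries of one time lay entirely above the 4 of the other, as they did for 632 (4.34%) of all genes tested. All 40 genes that rose and 83 of the 91 that fell (91.2%) are protein coding, beside 87.9% of all genes tested.

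The calls rest on the spread shared by all 48 libraries. With the 8 libraries fitted alone, edgeR called 0 genes, with 834 at an unadjusted p under 0.05, against 1786 in the fit of all libraries. Without replicate 2 of both times, 5 genes rose and 6 fell, all 11 of them among the 131, and all 131 kept their direction with an unadjusted p under 0.05 and a median fold size of 0.92 of the full one. The calls kept were those of Fmo5, Gde1, Tspan4, Ttpal and Atp6v1d, which rose, and Prkd3, Tbcel, Tom1l2, Gm37494, Iws1 and 0610030E20Rik, which fell. The other called genes named here did not pass without replicate 2, with adjusted p from 0.065 (Eepd1) to 0.376 (Junb). Replicate 4 of ZT8 was the ZT8 library nearest to ZT12 for 32 of the 40 genes that rose and 60 of the 91 that fell, and without it 129 genes rose and 200 fell. The counts also moved by more than 1.5 times without replicate 1 of ZT8 (8 rose, 25 fell), replicate 2 of ZT8 (22 rose, 50 fell), replicate 1 of ZT12 (25 rose, 38 fell), replicate 2 of ZT12 (33 rose, 56 fell) or replicate 3 of ZT12 (13 rose, 24 fell).

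**Figure D1:**
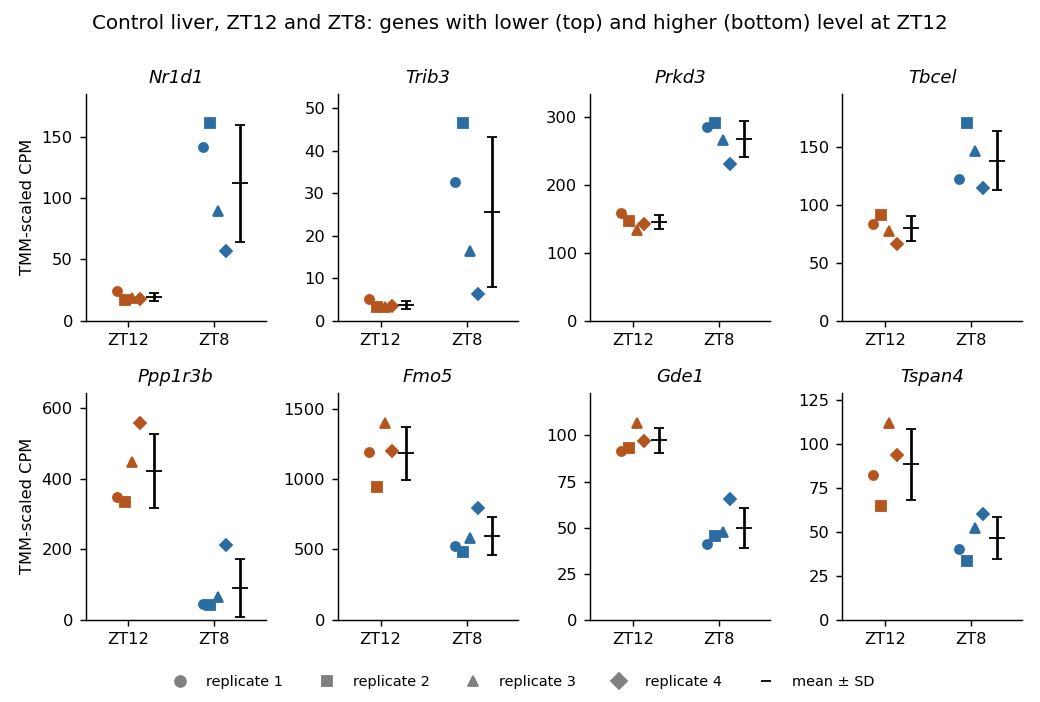
Level of 8 genes in each control library, in counts per 1e6 after TMM scaling (CPM), with ZT12 left and ZT8 right in every panel. Marker shape gives the replicate number and the bar the mean ± SD of 4 libraries. In all 8 panels the libraries of the 2 times are separate, and the ZT8 diamond (replicate 4) is the ZT8 point nearest to ZT12 in all 8, for example at 57 CPM for Nr1d1 and 213 CPM for Ppp1r3b.

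Promoter windows show where the letters of clock-related elements lie in 4 of the genes that changed, 2 that rose (Cry1 and Gde1) and 2 that fell (Cbs and Rnf152). They are RefSeq windows on GRCm38.p6, from 250 bases before to 50 bases after an annotated start, written 5′ to 3′ on the gene's strand. Capitals mark an E-box (CACGTG) in Cry1 (chr10:85185005-85185304, minus strand) and Cbs (chr17:31637156-31637455, minus strand), a D-box (TTATGTAA, read on the opposite strand) in Gde1 (chr7:118705689-118705988, minus strand), and a REV-ERB/ROR element (TAGGTCA) in Rnf152 (chr1:105356661-105356960, minus strand).
Cry1: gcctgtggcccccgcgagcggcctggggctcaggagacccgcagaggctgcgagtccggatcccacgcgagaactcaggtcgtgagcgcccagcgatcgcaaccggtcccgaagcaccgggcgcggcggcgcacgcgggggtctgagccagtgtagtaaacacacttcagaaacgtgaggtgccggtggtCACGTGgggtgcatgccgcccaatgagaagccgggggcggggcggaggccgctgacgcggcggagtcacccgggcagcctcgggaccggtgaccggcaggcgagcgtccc
Gde1: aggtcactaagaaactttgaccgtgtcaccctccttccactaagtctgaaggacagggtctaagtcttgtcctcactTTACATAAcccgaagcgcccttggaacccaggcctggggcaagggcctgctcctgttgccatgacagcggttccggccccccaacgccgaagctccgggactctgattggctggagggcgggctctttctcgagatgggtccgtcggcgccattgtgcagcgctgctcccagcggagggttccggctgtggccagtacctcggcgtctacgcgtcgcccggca
Cbs: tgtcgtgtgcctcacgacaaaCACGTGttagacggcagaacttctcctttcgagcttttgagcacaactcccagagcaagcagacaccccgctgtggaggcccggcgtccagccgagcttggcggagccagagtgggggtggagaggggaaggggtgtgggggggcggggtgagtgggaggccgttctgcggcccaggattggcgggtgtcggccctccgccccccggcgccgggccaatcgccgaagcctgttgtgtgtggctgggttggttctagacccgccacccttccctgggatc
Rnf152: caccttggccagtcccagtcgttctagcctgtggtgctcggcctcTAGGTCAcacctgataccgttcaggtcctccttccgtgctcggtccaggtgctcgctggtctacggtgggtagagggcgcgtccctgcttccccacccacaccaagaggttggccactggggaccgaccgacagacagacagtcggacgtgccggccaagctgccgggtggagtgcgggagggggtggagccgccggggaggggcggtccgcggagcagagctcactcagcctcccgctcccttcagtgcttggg
The E-box begins at base 191 of the Cry1 window and at base 22 of the Cbs window, the D-box at base 78 of the Gde1 window and the REV-ERB/ROR element at base 46 of the Rnf152 window. Searched on both strands, the E-box letters were present in 3 of 29 windows of genes that rose (10.3%), 11 of 68 of genes that fell (16.2%), 10% of 10563 windows of tested genes and 7.15% of all 32851 windows. D-boxes (TTATGTAA or TTATGCAA) were found in 1 window of the genes that rose (3.45%), in none of the 68 of genes that fell, and in 1.21% of the windows of tested genes (1.66% of all windows). The REV-ERB/ROR letters were found in none of the 29 and in 2 of the 68 windows (2.94%), against 2.04% of the windows of tested genes (2.61% of all windows). Letters of an ATF4 composite element (TTGCATCA) were found in 0 of the 29 and 0 of the 68 windows, against 0.644% of the windows of tested genes. CRE letters (TGACGTCA) were found in 1 of the 29 (3.45%) and 0 of the 68, against 3.1%. Each window printed holds a match, while the window of Nr1d1 held 0 E-boxes. These matches describe letters in a short window and were not tested for binding.

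Of the core clock repressors, 1 fell and 1 rose. Nr1d1 encodes REV-ERBα, the nuclear receptor that represses Arntl, and lies on chromosome 11 (98767932 to 98775333, mm10). It stood at 24, 17.2, 18.4 and 18 scaled CPM in replicates 1 to 4 of ZT12, against 142, 161, 89.5 and 57 CPM in those of ZT8. All ZT12 libraries lay below all ZT8 libraries, and the ZT8 libraries were spread widely. Nr1d1 changed by -2.53 in log2 units (SE 0.45) with an adjusted p = 0.00226, and its log2 fold change was -2.25 (adjusted p = 0.08) without replicate 2 of both times. Thra, on the other strand, shares 8.55% of the exonic bases of Nr1d1, and whether counting used strand is not given in the sources used here.

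Cry1, a repressor of CLOCK and BMAL1 whose E-box window is printed above, rose. Its libraries read 16.6, 8.87, 14.8 and 20.4 CPM at ZT12 and 6.4, 3.96, 7.62 and 9.87 CPM at ZT8, so that 1 ZT12 library lay below the highest ZT8 library. The log2 fold change was 1.12 (SE 0.28, adjusted p = 0.0434), and 1.12 (adjusted p = 0.133) without replicate 2.

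The other clock genes named here did not pass the threshold. Bhlhe41 (DEC2, a repressor at E-boxes) stood at 3.98 ± 0.919 CPM at ZT12 and 11.2 ± 4.91 CPM at ZT8 (SD, n = 4 each), with no overlap of the libraries and an adjusted p = 0.102 in edgeR. Dbp, a PAR bZIP activator, stood at 72.7 ± 22 CPM at ZT12 and 145 ± 22.2 CPM at ZT8, again without overlap (log2 -0.99, SE 0.42, adjusted p = 0.305). Among the Period genes, which encode the partners of the Cryptochromes, Per2 read 43.9 ± 6.42 CPM at ZT12 and 28 ± 12.8 CPM at ZT8 (adjusted p = 0.505), Per1 had a log2 fold change of 0.42 (adjusted p = 0.791) and Per3 one of -0.24 (adjusted p = 0.83). Arntl was near its daily low at both times, at 1.75 ± 0.382 CPM at ZT12 and 1.49 ± 0.671 CPM at ZT8 (adjusted p = 0.87). Npas2, a paralog of CLOCK, stood under 1 CPM in all 8 libraries, where a count of 0 allows up to 0.17 to 0.195 CPM.

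The remaining clock genes of the list were closer between the times. Cry2 had a log2 fold change of -0.44 (adjusted p = 0.154), Nr1d2 of -0.64 (0.381), Nfil3 of 0.67 (0.373), Hlf of 0.29 (0.403) and Usp2 of 0.47 (0.538). Tef (-0.22), Bhlhe40 (0.24), Clock (-0.09) and Ciart (0.17) had adjusted p from 0.698 to 0.927. Counted by list, 1 of 10 repressors rose and 1 fell (median log2 fold change -0.04), beside a median of -0.02 over all genes tested.

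**Figure D2:**
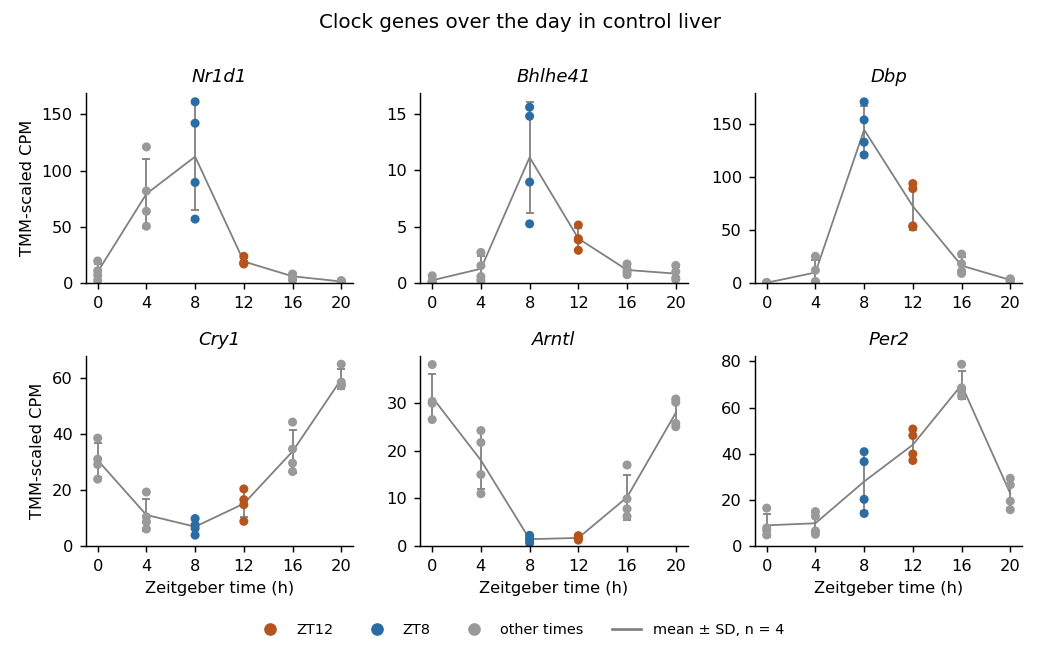
Level of 6 clock genes in the 24 control libraries over the labelled day, in TMM-scaled CPM against zeitgeber time in hours. Points are libraries, with ZT12 and ZT8 coloured, and the grey line joins the means ± SD of 4 libraries. Nr1d1, Bhlhe41 and Dbp had their highest mean at ZT8, Cry1 at ZT20, Per2 at ZT16 and Arntl at ZT0.

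Over the 6 control times, Nr1d1 averaged 10.2, 79.5, 112, 19.4, 6.29 and 1.72 CPM from ZT0 to ZT20, and fell by more CPM in this step than in any later one. Cry1 averaged 30.6, 11.1, 6.96, 15.2, 33.7 and 59.4 CPM, and the step is the start of its climb. Arntl averaged 31.2, 18, 1.49, 1.75, 10.3 and 27.9 CPM over the same times, with its lowest means at ZT8 and ZT12. Dbp declined after ZT8, with means of 0.621, 10.3, 145, 72.7, 16.7 and 3.22 CPM.

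Among 15 PAR bZIP factors and clock output genes, 2 rose and 0 fell, with a median log2 fold change of 0.37. Tspan4, which encodes a tetraspanin of the cell membrane, had the smallest p of the genes that rose beside Gde1. It stood at 82.3, 64.5, 112 and 93.7 CPM at ZT12 and at 40, 33.1, 51.9 and 59.9 CPM at ZT8, without overlap, and rose by 0.93 (SE 0.15, adjusted p = 0.000688; 0.93 and adjusted p = 0.00309 without replicate 2). Chid1 on the other strand shares 13.4% of its exonic bases. Nampt, the rate-limiting enzyme of NAD salvage and a clock target, read 123, 91.4, 149 and 123 CPM at ZT12 and 56.1, 40.4, 79.2 and 103 CPM at ZT8, and rose by 0.8 (SE 0.21, adjusted p = 0.0498; 0.73 and adjusted p = 0.196 without replicate 2). One ZT8 library, replicate 4, lay within the ZT12 range. Rgs16, a regulator of G protein signalling, had a log2 fold change of -2.64 (SE 0.88, adjusted p = 0.153), with ZT12 libraries from 9.68 to 21.1 CPM and ZT8 libraries from 17.4 to 167 CPM.

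Several enzymes of amino acid and sulfur metabolism fell, though most members of their lists did not pass. In the breakdown of histidine, Hal (histidine ammonia-lyase, the first enzyme) stood at 256, 328, 241 and 490 CPM at ZT12 and 739, 679, 610 and 388 CPM at ZT8, overlapping only through replicate 4. It fell by 0.88 (SE 0.2, adjusted p = 0.0198; -0.81 and adjusted p = 0.162 without replicate 2). Amdhd1, the imidazolonepropionase further down the same pathway, was looked up after its values were seen and read 125, 197, 150 and 169 CPM at ZT12, below 293, 347, 264 and 208 CPM at ZT8. It fell by 0.79 (SE 0.16, adjusted p = 0.0104; -0.78 and adjusted p = 0.0662 without replicate 2).

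Kynu (kynureninase, in tryptophan breakdown) averaged 144 ± 34.5 CPM at ZT12 and 239 ± 73.2 CPM at ZT8 (SD, n = 4 each) and fell by 0.73 (SE 0.19, adjusted p = 0.0498), a call lost in the fit with a replicate block (adjusted p = 0.0682) and without replicate 2 (-0.8, adjusted p = 0.0875). Hykk, which phosphorylates hydroxylysine, fell by 1.19 (SE 0.26, adjusted p = 0.019; -1.29 and adjusted p = 0.0842 without replicate 2), with separate ranges of 41.5 to 64.5 CPM at ZT12 and 94.1 to 166 CPM at ZT8. Dhtkd1, of lysine and tryptophan breakdown, likewise chosen after its values were seen, fell by 0.54 (SE 0.13, adjusted p = 0.0372; -0.49 and adjusted p = 0.222 without replicate 2). Amt, the T-protein of the glycine cleavage system, read 30.7, 32, 23.5 and 35.8 CPM at ZT12 and 66.3, 56, 50.5 and 35.1 CPM at ZT8, and fell by 0.77 (SE 0.15, adjusted p = 0.00752; -0.75 and adjusted p = 0.08 without replicate 2).

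Both enzymes of transsulfuration, the route from homocysteine to cysteine, fell. Cbs (cystathionine beta-synthase) stood at 366, 501, 334 and 343 CPM at ZT12 and 607, 808, 580 and 492 CPM at ZT8, and fell by 0.69 (SE 0.16, adjusted p = 0.0213; -0.69 and adjusted p = 0.08 without replicate 2). Its E-box window is among those printed above. Cth (cystathionine gamma-lyase) read 505, 559, 495 and 705 CPM at ZT12 and 1329, 770, 1399 and 524 CPM at ZT8, so replicate 4 of ZT8 lay within the ZT12 range. It fell by 0.83 (SE 0.21, adjusted p = 0.0396), and the call was lost with a replicate block (adjusted p = 0.0617) and without replicate 2 (-0.93, adjusted p = 0.102).

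By list, 0 of 21 amino acid breakdown genes rose and 2 fell (median -0.15), and 0 of 14 genes of the methionine cycle and transsulfuration rose and 2 fell (median -0.15). Of 12 serine and one-carbon genes 0 rose and 1 fell (median -0.28), and of 14 urea cycle and arginine genes 0 passed in either direction (median -0.14). Ass1, the urea cycle enzyme that joins citrulline and aspartate, had a log2 fold change of -0.55 (adjusted p = 0.146), and Bhmt, which remethylates homocysteine, one of -0.58 (adjusted p = 0.344). Markers of periportal hepatocytes, a list that includes Hal and Ass1, ran the same way, with 10 of 12 below 0 and 1 called. Their median was -0.31, beside -0.02 over all genes tested. Their summed level was 8785 to 12501 CPM at ZT12 and 11327 to 20123 CPM at ZT8, and the part of the zonal composition in these results was not tested. In the phase-shifted step the medians were 0.19 for amino acid breakdown (18 of 21 above 0) and 0.22 for the methionine cycle list (12 of 14). They were 0.04 for serine and one-carbon genes (7 of 12) and 0.26 for urea cycle genes (12 of 14). Of the periportal markers, 6 of 12 lay above 0 there. The lists were not tested for a difference between the arms.

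**Figure D3:**
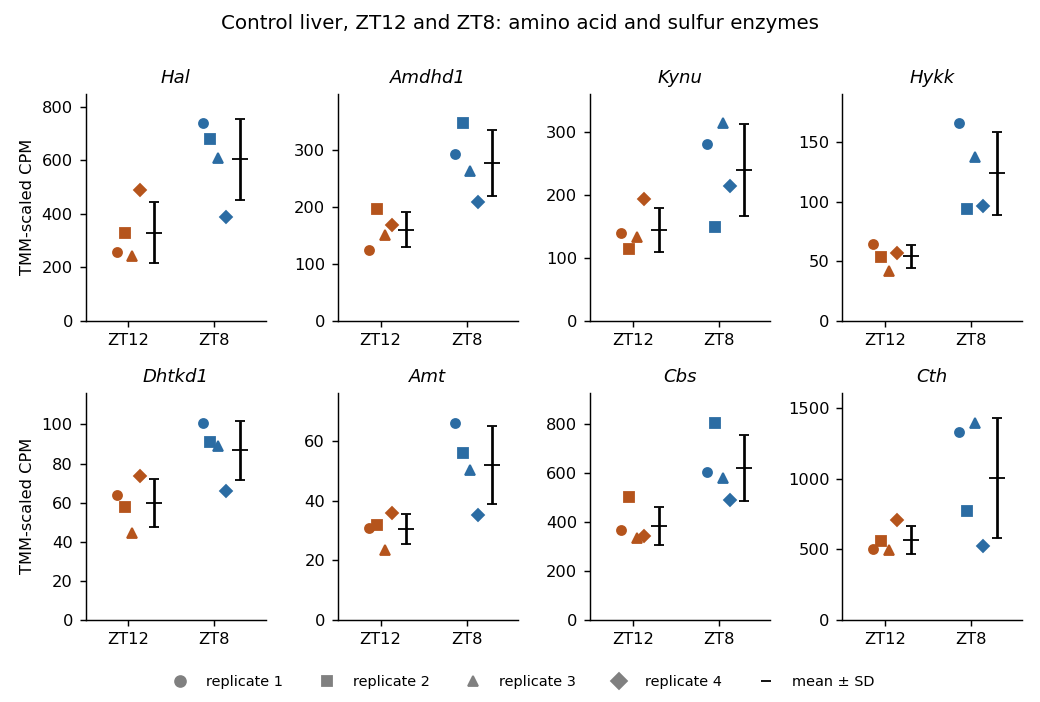
Level of 8 enzymes of amino acid and sulfur metabolism in each control library, in TMM-scaled CPM, with ZT12 left and ZT8 right. Marker shape gives the replicate and the bar the mean ± SD of 4 libraries. The 8 were picked from the genes called lower, with log2 fold changes from -0.54 for Dhtkd1 to -1.19 for Hykk, and replicate 4 (diamond) lies lowest of the ZT8 libraries in 6 of the 8 panels, among them Hal at 388 CPM and Cth at 524 CPM.

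A pair of regulators of the amino acid stress response fell as well. Trib3, a pseudokinase induced by ATF4 that binds AKT, had the largest fall of the called genes named here, apart from the weakly expressed Gm32540. It lies on chromosome 2 (152337422 to 152344032, mm10) and stood at 5.09, 3.13, 3.25 and 3.34 CPM at ZT12 and 32.6, 46.4, 16.5 and 6.32 CPM at ZT8. The ranges did not overlap, and the ZT8 libraries spanned a wide range with replicate 4 lowest. Trib3 fell by 2.77 (SE 0.48, adjusted p = 0.00197; -2.24 and adjusted p = 0.0832 without replicate 2).

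Atf5, a bZIP factor of the same response, stood at 155, 105, 85.5 and 73.9 CPM at ZT12 and 163, 246, 154 and 198 CPM at ZT8. It fell by 0.86 (SE 0.21, adjusted p = 0.0322), a call lost with a replicate block (adjusted p = 0.0518) and without replicate 2 (-0.71, adjusted p = 0.251). Psat1, of serine synthesis, ran the other way without passing, with 5.56 CPM in replicate 1 of ZT12 and 0.528 to 0.83 CPM in the other 3, against 0.224 to 0.777 CPM at ZT8 (adjusted p = 0.051). Of 13 tested genes of the amino acid response and ATF4 list, 0 rose and 3 fell (Trib3, Atf5 and Cth), with a median of 0.14, with 9 of the 13 above 0.

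In glucose metabolism, the glycogen-targeting gene Ppp1r3b had the largest rise of the called genes named here, apart from the weakly expressed Serpina5. Ppp1r3b (chromosome 8, 35375739 to 35388139, mm10) encodes the subunit that brings protein phosphatase 1 to glycogen in liver, where it promotes glycogen synthesis. It read 348, 333, 447 and 560 CPM at ZT12 and 45.4, 41.3, 64.6 and 213 CPM at ZT8. All ZT12 libraries were higher, and replicate 4 of ZT8 stood well above the other ZT8 libraries. Ppp1r3b rose by 2.21 (SE 0.54, adjusted p = 0.0361), or 4.63-fold, with 2.07 and an adjusted p = 0.219 without replicate 2.

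Gckr, a regulatory protein of glucose use in hepatocytes, fell. It stood at 117, 98.7, 101 and 118 CPM at ZT12, below 168, 180, 147 and 140 CPM at ZT8, a change of -0.55 (SE 0.12, adjusted p = 0.0125; -0.44 and adjusted p = 0.205 without replicate 2). Pck1, the cytosolic enzyme that commits carbon to gluconeogenesis, stood at 2331 ± 87.4 CPM at ZT12 and 4310 ± 1975 CPM at ZT8 (SD, n = 4 each; adjusted p = 0.39).

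Ppargc1b, a coactivator of nuclear receptors and mitochondrial genes, fell by 1.58 (SE 0.38, adjusted p = 0.0313; -1.6 and adjusted p = 0.137 without replicate 2), with 5.86, 3.19, 3.19 and 3.93 CPM at ZT12 and 19.8, 8.96, 14.4 and 5.27 CPM at ZT8. It was chosen after its values were seen. Its relative Ppargc1a, a coactivator of gluconeogenic genes, stood at 7.98 ± 1.68 CPM at ZT12 and 17.3 ± 9.58 CPM at ZT8 and did not pass (adjusted p = 0.0951). By list, 1 of 14 glycogen genes rose and 0 fell (median -0.08), and 0 of 11 gluconeogenesis genes passed (median -0.07). Of 14 genes of glycolysis and glucose uptake, 0 rose and 1 fell, the regulator Gckr, while 11 lay above 0 (median 0.13).

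Lipid, sterol and bile acid genes gave few calls. Insig2, which holds SREBP precursors in the endoplasmic reticulum, read 54.8, 82.2, 62.6 and 66.3 CPM at ZT12, below 105, 186, 121 and 123 CPM at ZT8, and fell by 1.01 (SE 0.22, adjusted p = 0.0159; -0.93 and adjusted p = 0.122 without replicate 2). Fads3, a member of the fatty acid desaturase family, stood at 11, 13.3, 11.3 and 11.1 CPM at ZT12 and 22.2, 44.1, 26 and 26.4 CPM at ZT8 and fell by 1.35 (SE 0.28, adjusted p = 0.0104; -1.16 and adjusted p = 0.133 without replicate 2). Elovl5, an elongase of polyunsaturated fatty acids, had a log2 fold change of -0.78 that did not pass (adjusted p = 0.0667), and Mlxipl, which encodes the carbohydrate-responsive factor ChREBP, one of -0.5 (adjusted p = 0.138).

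Abcb11, the bile salt export pump of the canalicular membrane, read 345, 324, 487 and 369 CPM at ZT12 and 708, 516, 728 and 619 CPM at ZT8, without overlap. It fell by 0.75 (SE 0.2, adjusted p = 0.0498), a call lost with a replicate block (adjusted p = 0.0682) and without replicate 2 (-0.77, adjusted p = 0.172). Cyp8b1, the sterol 12α-hydroxylase of bile acid synthesis, had a log2 fold change of -0.63 (adjusted p = 0.395). Osbpl5, a lipid transfer protein of the oxysterol-binding family, rose by 1.23 (SE 0.29, adjusted p = 0.0251; 0.88 and adjusted p = 0.285 without replicate 2), with 4.02, 8.62, 7.68 and 5.87 CPM at ZT12 and 2.46, 1.49, 3.31 and 3.77 CPM at ZT8. Of 17 fatty acid synthesis genes 0 rose and 1 fell (median -0.15), of 20 bile acid genes 0 rose and 1 fell (median -0.1), and of 24 cholesterol synthesis genes and 28 fatty acid oxidation genes 0 passed (medians 0.07 and 0.15).

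**Figure D4:**
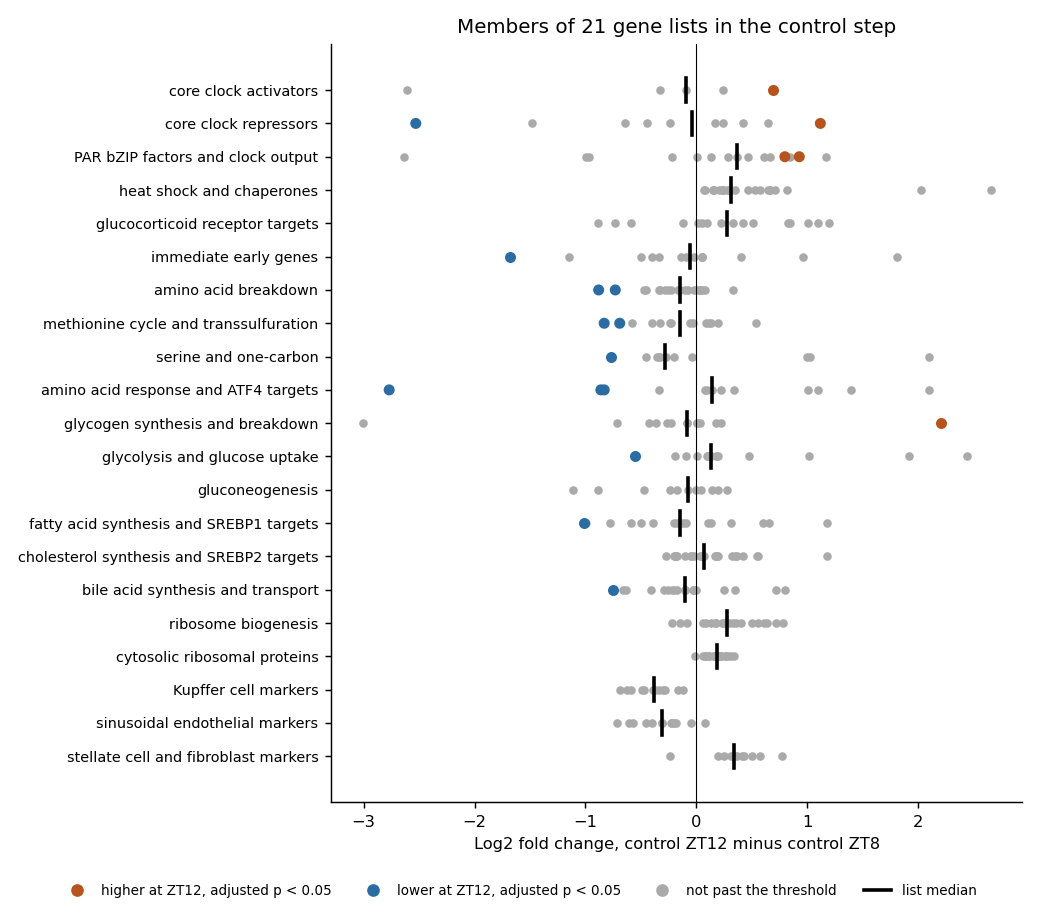
Log2 fold change, control ZT12 minus control ZT8, of the tested members of 21 gene lists. Grey points did not pass the threshold, coloured points did, and black bars mark list medians. Every chaperone point lies above 0 without a call, and the coloured points of the metabolic lists lie mostly below 0, with Ppp1r3b at 2.21 on the right.

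No heat shock gene passed the threshold. All 23 tested chaperones had a positive log2 fold change, with a median of 0.31, 7 at an unadjusted p under 0.05 and 0 called. Beside them, 720 of all 14555 genes tested rose at an unadjusted p under 0.05, and the median over all was -0.02. Hspa1a and Hspa1b, near-identical genes of inducible HSP70 between which reads may be split, read 1.82 ± 1.5 and 24.1 ± 15 CPM at ZT12 and 0.276 ± 0.157 and 5.83 ± 3.18 CPM at ZT8 (SD, n = 4 each; adjusted p = 0.0613 and 0.111). Dnaja1, a cochaperone of HSP70, had a log2 fold change of 0.65 (adjusted p = 0.22). The cold-inducible RNA-binding gene Cirbp, which runs opposite to body temperature, stood at 13.5 ± 4.76 CPM at ZT12 and 26.2 ± 18.4 CPM at ZT8 (adjusted p = 0.193).

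Of 16 glucocorticoid receptor targets, 12 lay above 0 and 0 passed (median 0.28, beside -0.02 over all genes tested). Fkbp5, a cochaperone induced by the receptor, had a log2 fold change of 1.2 (SE 0.39, adjusted p = 0.138), Tsc22d3 (GILZ) one of 0.85 (adjusted p = 0.246), Cebpd one of 0.83 (adjusted p = 0.0953) and Ddit4 one of 1.01 (adjusted p = 0.243). Among 14 immediate early genes, Junb, a subunit of AP-1, fell by 1.68 (SE 0.43, adjusted p = 0.0434), a call lost with a replicate block (adjusted p = 0.0874). Its libraries read 21.2, 15.1, 13.6 and 13.8 CPM at ZT12 and 59.7, 94.1, 18.4 and 32.5 CPM at ZT8, and without replicate 2 the change was -1.18 (adjusted p = 0.376). Atf3, a stress-induced bZIP factor, had a log2 fold change of 1.81 that did not pass (adjusted p = 0.183).

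Differences in the translation machinery were small. Of 20 ribosome biogenesis genes, 17 lay above 0 and 10 had an unadjusted p under 0.05. Of 23 cytosolic ribosomal protein genes 22 lay above 0, with 0 called in either list and medians of 0.28 and 0.19. Over all 14555 genes tested, 720 rose at an unadjusted p under 0.05 and the median was -0.02. Nolc1, a nucleolar chaperone, stood at 40.6 ± 5.96 CPM at ZT12 and 24.7 ± 12.8 CPM at ZT8 (SD, n = 4 each; adjusted p = 0.188). Rack1, a scaffold on the small ribosomal subunit, and Rps3a1, a protein of that subunit, were chosen after their values were seen. Rack1 read 284, 332, 335 and 305 CPM at ZT12, above 237, 248, 249 and 273 CPM at ZT8, and rose by 0.32 (SE 0.08, adjusted p = 0.0388; 0.29 and adjusted p = 0.235 without replicate 2). Rps3a1 rose by 0.36 (SE 0.09, adjusted p = 0.0372; 0.31 and adjusted p = 0.27 without replicate 2). Genes of this kind have processed copies in the genome, so their counts are uncertain to that extent.

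A noncoding RNA and splicing factors of the nucleus also changed. Malat1, a long noncoding RNA of nuclear speckles, fell by 0.62 (SE 0.16, adjusted p = 0.0482), with a call lost under a replicate block (adjusted p = 0.0557) and without replicate 2 (-0.56, adjusted p = 0.256). Rbm39, a splicing factor, read 78.7, 70, 70 and 77.7 CPM at ZT12 and 94.5, 97.2, 91.5 and 90.3 CPM at ZT8 and fell by 0.33 (SE 0.08, adjusted p = 0.0313; -0.29 and adjusted p = 0.228 without replicate 2), while Mbnl2, a muscleblind splicing factor, rose by 0.49 (SE 0.13, adjusted p = 0.0498; 0.46 and adjusted p = 0.249 without replicate 2). These 3 were chosen after their values were seen. Gm37494, an unannotated long intergenic noncoding RNA on chromosome 7 (39544402 to 39580589, mm10), had one of the smallest p-values, with 18.3, 20.1, 19.6 and 22.2 CPM at ZT12 and 39.7, 44, 31.8 and 31 CPM at ZT8. It fell by 0.87 (SE 0.14, adjusted p = 0.000688; -0.77 and adjusted p = 0.0201 without replicate 2).

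Further genes were among those with the smallest p-values. Prkd3, which encodes the serine/threonine kinase PKD3, stood at 158, 146, 134 and 142 CPM at ZT12 and 284, 290, 265 and 231 CPM at ZT8, far apart for their spread. It fell by 0.88 (SE 0.14, adjusted p = 0.000688; -0.85 and adjusted p = 0.0164 without replicate 2). Tbcel, a tubulin cofactor-like gene, fell by 0.79 (SE 0.13, adjusted p = 0.00102; -0.75 and adjusted p = 0.0164 without replicate 2), with 65.9 to 91 CPM at ZT12 and 114 to 170 CPM at ZT8. Gde1, a glycerophosphodiester phosphodiesterase whose D-box window is printed above, read 91.7, 93.2, 107 and 97.2 CPM at ZT12 and 40.9, 45.2, 47.6 and 65.7 CPM at ZT8, and rose by 0.96 (SE 0.15, adjusted p = 0.000688; 0.94 and adjusted p = 0.0164 without replicate 2).

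Fmo5, a flavin-containing monooxygenase, was the most abundant of the genes named here that rose, with 1194, 943, 1402 and 1197 CPM at ZT12 and 523, 484, 579 and 793 CPM at ZT8 (log2 0.99, SE 0.18, adjusted p = 0.00197; 1 and adjusted p = 0.0165 without replicate 2). Saa4, the constitutive serum amyloid A, rose by 0.99 (SE 0.21, adjusted p = 0.0106; 0.98 and adjusted p = 0.0943 without replicate 2), with 372 to 610 CPM at ZT12 and 180 to 341 CPM at ZT8. Il1r1, the receptor for interleukin-1, rose by 0.94 (SE 0.21, adjusted p = 0.0198; 0.97 and adjusted p = 0.102 without replicate 2), with 43.9 to 60 CPM at ZT12 and 20.2 to 32 CPM at ZT8. Hnf4a, a nuclear receptor that defines hepatocytes, rose by 0.56 (SE 0.14, adjusted p = 0.0428; 0.53 and adjusted p = 0.219 without replicate 2), the only one of 12 hepatocyte markers called in either direction.

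The other genes with large, non-overlapping rises had log2 fold changes of 1.01 for Vps37b (an ESCRT-I subunit), 0.85 for Phldb1, 0.82 for Dcun1d3 (a cofactor of neddylation), 0.8 for Ablim3 (an actin-binding protein) and 0.75 for the predicted gene Gm10053. Hip1r, on the other strand, shares 32.9% of the exonic bases of Vps37b. The call of Gm10053 (adjusted p = 0.0429) was lost with a replicate block (adjusted p = 0.054). Those with large falls were Rfx4 (-1.9, an RFX transcription factor), Fam198a (-1.5), Rnf152 (-1.46, a ubiquitin ligase of lysosomes, with its REV-ERB/ROR window above), Fam13a (-1.23), Eepd1 (-1.16), Khnyn (-1.13), Cdk5rap2 (-1.12, a centrosomal protein) and Cecr2 (-1.02, a bromodomain protein). The call of Khnyn (adjusted p = 0.0369) was lost with a replicate block (adjusted p = 0.054), and Sdr39u1 shares 18.4% of its exonic bases on the other strand. None of these genes passed without replicate 2, where log2 fold changes ran from 0.68 (Gm10053) to 0.94 (Vps37b) for those that rose, with adjusted p from 0.101 (Vps37b) to 0.222 (Dcun1d3). For those that fell they ran from -2.02 (Rfx4) to -0.82 (Cecr2), with adjusted p from 0.065 (Eepd1) to 0.276 (Cecr2).

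Odc1, the first enzyme of polyamine synthesis, had a log2 fold change of 0.73 (adjusted p = 0.0714) and passed only with a replicate block (adjusted p = 0.0495). Of the 50 lists, 16 held a called gene. In the 32 further lists with at least 5 tested genes none was called, and their medians ran from -0.38 to 0.34. Kupffer cell markers gave the lowest of these, with 13 of 13 below 0 and 0 called. Their median became 0.01 with the mitochondrial share as a covariate, but was -0.41 without replicate 2 of both times. For the Kupffer markers the phase-shifted step gave a median of -0.58, with 0 of 13 above 0 and 0 called. What lies behind these values was not tested. Stellate cell and fibroblast markers gave the highest, with 12 of 13 above 0 and 0 called, and a median of 0.3 without replicate 2 of both times. Their summed level at ZT8 was 222 CPM in replicate 2 and 368 to 467 CPM in the other libraries. In the phase-shifted step 0 of these 13 lay above 0, with a median of -0.36 and 1 called lower. Adgre1, a Kupffer marker, read 11.8, 0.319, 4.08 and 7.8 CPM at ZT12 and 17.3, 0.149, 8.86 and 12.2 CPM at ZT8, and its spread between replicates was far wider than its difference between times.

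The same 4 h step was then read in the phase-shifted arm, which shares no library with the control step. There 28 genes rose (0.192%) and 16 fell (0.11%), 44 in all (0.302%). Of the 40 genes that rose in control, 39 had a positive change in the phase-shifted arm (97.5%), and of the 91 that fell, 77 had a negative one (84.6%), against a shared sign in 62.7% of all genes tested. The changes were smaller there, with a median of 0.34 for the genes that rose in control (0.72 in control) and -0.27 for those that fell (-0.82 in control). The control values chose these genes, so the medians of the arms were not tested against each other.

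Prkd3, Tbcel, Eepd1, Gde1, Mbnl2 and Cry1 passed in both arms in the same direction, which is 4.58% of the control calls and 13.6% of the phase-shifted calls. Prkd3 changed by -0.88 in control and -0.8 in the phase-shifted arm, and Cry1 by 1.12 in control and 1.22 in the phase-shifted arm. Ppp1r3b changed by 2.21 in control and had a value of 2.01 in the phase-shifted arm, where it did not pass (adjusted p = 0.0943). Nr1d1 changed by -2.53 in control and -1.49 in the phase-shifted arm, and Trib3 by -2.77 in control and -1.38 in the phase-shifted arm.

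For some metabolic genes the values lay further apart. Cth changed by -0.83 in control and 0.2 in the phase-shifted arm, Cbs by -0.69 and -0.05, Kynu by -0.73 and 0.19, and Gckr by -0.55 and 0.09. For none of these did the test of the difference between the steps pass. Over all genes that test called 0 (0%), with a smallest adjusted p of 0.247 in edgeR, while DESeq2 called 10. In edgeR 718 genes had an unadjusted p under 0.05, 62 of them among the 131. The 131 were chosen by their control step, which is part of this difference, so the 62 cannot show that these genes step differently between arms. Among the 5 genes with the smallest p for a different step were Slc25a15 (-0.19 in control, 0.59 in the phase-shifted arm), Tom1l2 (-0.8 and 0.12), Pdgfrb (0.33 and -0.82) and the noncoding RNA Gm30301 (-0.14 and 2.7), of which Tom1l2 alone was called in the control step.

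**Figure D5:**
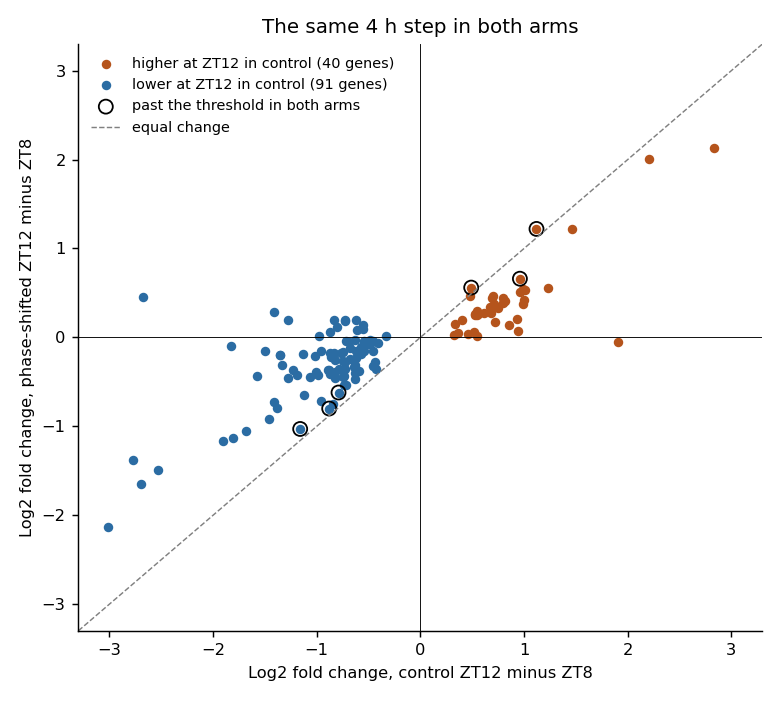
Log2 fold change of the 131 called genes in the control step (x axis) and in the same step of the phase-shifted arm (y axis). Orange points rose and blue points fell in control, ringed points passed in both arms, and the dashed line marks equal change. Most points lie on the side of 0 they have in control but nearer to 0, and 39 of 40 orange points are above 0 on the y axis.

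The daily profile of these genes in the phase-shifted arm was also read, since its means did not enter the control step. Its libraries did enter the filter and the shared spread behind the calls, so the choice of genes was not fully separate from them. Of the 40 genes that rose, 26 had their highest phase-shifted mean at ZT16 (65%, against 15.4% of all genes tested) and 21 their lowest at ZT4 (52.5%, against 18.7%). Of the 91 that fell, 23, 30 and 31 had their highest mean at ZT0 (25.3%, against 20.6% of all genes tested), ZT4 (33%, against 17.3%) and ZT8 (34.1%, against 17.9%), and 40 had their lowest at ZT16 (44%, against 17.7%). In control, where ZT12 and ZT8 chose the genes, 23 of the 40 peaked at ZT12 (57.5%, against 19.2% of all genes tested). Of the 91, 65 peaked at ZT8 (71.4%, against 22.2%).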

How the data were processed

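RNA-seq of mouse liver was analysed in 48 libraries of 12 groups, 4 per group, taken from the sample titles. The values tested were raw counts, as deposited, and the deposited FPKM table holds FPKM, that is counts per kilobase of gene length scaled by library. Per the labels' protocols, a sequencing company did the mapping and quantification, and the submitters' processing notes name mm10. Which aligner and counter were run, and whether strand was used, is not given in the sources used here. Serum metabolites were not analysed here.

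Tests used edgeR 4.0.16 (R 4.3.3) on the 14555 genes that filterByExpr kept. TMM scaling, 12 group means over 48 libraries (36 residual degrees of freedom) and robust quasi-likelihood F tests gave the step in each arm and the difference of the steps, with Benjamini-Hochberg adjustment over all genes and a threshold of 0.05. Scaled CPM are counts per 1e6 of the TMM-adjusted total. SE is the log2 fold change divided by the square root of F. The fit was tested on simulated data. DESeq2 1.42.0, limma 3.58.1 (voom, and log2(FPKM + pseudocount) with pseudocounts of 1 and 0.1), other filters and left-out libraries were alternatives. Deviations of same-numbered libraries from their group means correlated over genes at 0.429, 0.733, 0.196 and 0.176 for replicates 1 to 4. Pairs with different numbers ran from -0.549 to 0.413, the highest being ZT12 replicate 4 with ZT8 replicate 1. A pairing by number therefore stood out for replicate 2 alone, the replicate with the high mitochondrial share at both times. A fit with the replicate number as a block is given where it changes a call. The labels do not state such a pairing.

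No pair of libraries within control ZT12 or control ZT8 was alike to counting error (chi-square per gene averaged 31.5 or more). A count of 0 allows up to 3 counts, which covers counting error only.

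Named genes are up to 12 in each direction with the largest change among called, non-overlapping protein coding genes (mean log2 CPM 1 or more), the 6 with the smallest p, up to 4 per list with the smallest p, 19 clock genes and the 5 with the smallest p for the step difference. Some genes this rule picks are not reported here. Members and the 50 lists were chosen with earlier results of these data known. Promoter windows are from RefSeq (GRCm38.p6), 1 per gene, the one nearest to the gene's 5′ end in the deposited table. Overlaps of exons come from GENCODE vM21.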

Additional observations from a re-analysis of the deposited data

Results flagged for a closer look

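Groups of 4 libraries were checked for the genes named here, for total counts and for the mitochondrial share. Of 194 such groups, 10 held a library apart from the other 3, by a gap judged against the range of the 4. Chance alone marks about 1 in 20 such groups.

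At control ZT12, the highest library stood apart for Nr1d1 (24 CPM), Rgs16 (21.1 CPM), Trib3 (5.09 CPM) and Psat1 (5.56 CPM), all 4 in replicate 1. Replicate 4 of ZT12 stood apart as the highest for Gapdh (192 CPM) and Malat1 (170 CPM), and replicate 2 for Fads3 (13.3 CPM). Some of these gaps were small, with the other ZT12 libraries at 17.2 to 18.4 CPM for Nr1d1 and 3.13 to 3.34 CPM for Trib3. The lowest ZT12 library stood apart for Npas2, at 0 CPM in replicate 4, and for Pdgfrb, at 5.97 CPM in replicate 3.

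At control ZT8, replicate 4 stood far above the other 3 for Ppp1r3b (213 CPM, against 41.3 to 64.6 CPM). The gene was higher at ZT12, so this library lay toward the ZT12 level.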

How the results depend on the processing

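All 131 control calls kept their direction wherever they were tested, which was 126 genes with the 8 libraries alone, 127 with at least 50 counts in 4 libraries and 131 elsewhere. Counts of genes that rose and fell in control were 88 and 169 with DESeq2, 13 and 42 with the 24 control libraries alone, 0 and 0 with the 8 libraries alone, 17 and 44 with no filter on low counts (29638 genes tested), 91 and 169 with the mitochondrial share as a covariate, and 5 and 6 without replicate 2 of both times. Leaving out 1 control library gave 8 to 129 that rose and 24 to 200 that fell. In the phase-shifted arm DESeq2 gave 74 and 37, and leaving out 1 phase-shifted library 4 to 19 and 2 to 16, all but replicate 1 of ZT8 moving a count by over 1.5 times. The difference of the steps gave 10 calls with DESeq2, 2 without control ZT8 replicate 2, 1 without control ZT8 replicate 4 and 0 otherwise. The fit with a replicate block gave 42 and 73 in control, with 106 genes called in both fits, 25 lost and 9 gained, and 28 and 17 in the phase-shifted arm. The causes were not tested, beyond fewer libraries or more genes in the fit.

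Uncalled genes changed sign when 1 library was left out. Log2 fold changes then ran from -0.02 (without ZT8 replicate 4) to 0.54 for Arntl, from -0.23 to 0 (without ZT12 replicate 1) for Clock, from -0.06 (without ZT8 replicate 1; -0.01 without ZT12 replicate 2) to 0.33 for Ciart, from -0.98 (without ZT12 replicate 4) to 2.84 for Gapdh and from -0.38 to 0.09 (without ZT12 replicate 1) for Gm30301. Depth limits Npas2, at 0.0455 CPM at ZT12 and 0.332 CPM at ZT8, near what a count of 0 allows.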

Other observations

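Alas1, the rate-limiting enzyme of heme synthesis, stood at 1320, 1506, 1976 and 1469 CPM at ZT12, above 565, 418, 1044 and 576 CPM at ZT8. The libraries did not overlap, but the log2 fold change of 1.27 (SE 0.64) did not pass (adjusted p = 0.425 in edgeR). Ppp1r3g, a glycogen-targeting relative of Ppp1r3b, read 0.591, 0.894, 0.709 and 0.528 CPM at ZT12 and 5.71, 8.29, 7.56 and 0.61 CPM at ZT8, where replicate 4 alone lay in the ZT12 range (log2 -3.01, adjusted p = 0.234). Slc7a2, a carrier of cationic amino acids, had a log2 fold change of -0.95 (adjusted p = 0.193).

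The largest called changes belonged to weakly expressed genes chosen after their values were seen. Serpina5 (2.83, adjusted p = 0.0372; 2.4 and 0.231 without replicate 2) stayed at or below 1.54 CPM in all 8 libraries, and the noncoding RNA Gm32540 (-3.01, adjusted p = 0.0396; -2.6 and 0.256 without replicate 2) read 0.0591 to 0.575 CPM at ZT12 and 0.444 to 6.27 CPM at ZT8.

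Gapdh, a glycolytic enzyme often used for normalization and a gene with many processed copies, had 45, 116, 74 and 3277 counts at ZT12 and 164, 209, 104 and 130 counts at ZT8. Over all 48 libraries its counts ran from 18 to 3345 with a median of 86, and 6 libraries exceeded 1000. It was chosen after its values were seen, and why its counts fall into such levels was not tested.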
